A study of Mus musculus with 4 samples.

Results

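Chromosome 12 of 4 mouse liver tumours was followed probe by probe, leaving out the 3 Mb that hold the immunoglobulin heavy chain locus (Igh). The members were the 6947 genomic probes on mouse chromosome 12 (build mm9) whose start lay outside 114 to 117 Mb, of 170305 genomic probes on the array. Of these, 6652 lay before that window and 295 after it, from chr12:3102541 to 121252543, and the array's own annotation gave 711 gene names to 4557 of them. The chromosome was chosen by its low log2 ratios on these same arrays. Its level is therefore a description, with no test, and the comparisons with other chromosomes are descriptions too.

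The study used array comparative genomic hybridisation, in which tumour DNA and reference DNA carrying different dyes compete for the same probes. A log2 ratio of 0 means the same share of that sequence in both DNAs, and a negative value means less of it in the tumour. Each of the 4 tumours came from its own untreated C57BL/6J mouse with a liver-specific loss of Trp53, and each was run on 1 array with tumour DNA in Cy5. For the reference, in Cy3, the series design names spleen pooled from 3 sex-matched littermates, and the labelling protocol names liver. The labels give tumour and reference the same genotype, Trp53-/-, and the same sex, male. The promoter that restricted the Trp53 loss to liver and the age of the mice are not given in the sources used here, and the arrays read DNA, so the tissue could not be checked by marker genes.

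Depth on an array is signal over background. At least 99.96% of genomic spots were well above background in each channel of each array, and the noise between neighbouring probes (SD of log2 ratios) was 0.26, 0.32, 0.16 and 0.17 in tumours 1 to 4. Tumour 1 stood apart on the sex chromosomes: although labelled male, it had a mean log2 ratio of 0.81 on X and -3.03 on Y. The other 3 tumours lay between -0.050 and 0.18 on X and between -1.12 and -0.43 on Y. Tumours 1 and 4 were hybridised on the same slide. Values over the tumours are therefore given with and without tumour 1.

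The p53 protein, encoded by Trp53, halts or kills cells with damaged or unevenly shared chromosomes, and cells without it tolerate gains and losses of whole chromosomes. Mouse chromosome 12 has its centromere at one end, so all of its genes lie on a single arm. Among them are Sav1, the scaffold of the Hippo kinase cascade that holds the growth co-activator Yap in check, and Akt1, the kinase through which PI3-kinase signals promote growth and survival. Immp2l, which encodes a subunit of a mitochondrial inner membrane peptidase, and Nrxn3, a neuronal adhesion gene, are long genes. They show whether a change in level ran through a gene or broke within it.

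The arrays saw these genes through probes of about 60 bases, which differ in number and in base composition. The sequences below, read from the deposited files, are the only probes the files name for Sav1 and Akt1, followed by 3 lone probes that were low in every tumour. Capitals mark G and C, since the ratio changed with GC content. The files do not give the strand, so each is printed as deposited.
Sav1, chr12:71070750-71070809: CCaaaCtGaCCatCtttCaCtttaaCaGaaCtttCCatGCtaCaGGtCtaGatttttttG
Sav1, chr12:71079959-71080018: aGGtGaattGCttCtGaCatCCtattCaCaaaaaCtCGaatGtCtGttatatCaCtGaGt
Akt1, chr12:113904354-113904411: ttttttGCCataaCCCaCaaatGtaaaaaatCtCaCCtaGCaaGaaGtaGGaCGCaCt
Asxl2, chr12:3470067-3470126: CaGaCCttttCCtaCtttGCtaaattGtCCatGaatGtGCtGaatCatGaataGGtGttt
4933426M11Rik, chr12:81892528-81892587: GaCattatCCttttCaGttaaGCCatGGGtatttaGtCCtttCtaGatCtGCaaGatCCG
AK135613, chr12:39595029-39595088: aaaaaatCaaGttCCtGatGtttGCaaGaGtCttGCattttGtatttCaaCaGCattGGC
Both Sav1 probes and the Asxl2 probe held 36.7% G and C, the Akt1 probe 37.9%, the AK135613 probe 35% and the 4933426M11Rik probe 40%. The mean over all members was 36.8%. No mm9 annotation was used here, so exon, intron or untranslated position is not stated.

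Chromosome 12 was low along its whole length in tumours 1 and 2, slightly low in tumour 3 and close to the other autosomes in tumour 4. The mean log2 ratios of tumours 1 to 4 were -0.30, -0.24, -0.080 and -0.023. The standard errors over 110 bins of 1 Mb were 0.0069, 0.0055, 0.0052 and 0.0036. They describe evenness along one array, not the spread between mice. Over the 4 tumours the mean was -0.16 ± 0.13 (SD, n = 4), and without tumour 1 it was -0.11 ± 0.11 (SD, n = 3).

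All 110 bins lay below 0 in tumours 1 and 2, against 98 in tumour 3 and 88 in tumour 4. Of the 1935 bins of the 15 autosomes other than 9, 12, 13 and 15, 1004, 1159, 839 and 1393 lay below 0 in tumours 1 to 4. Most bins of tumour 4 were thus below 0 on those autosomes as well. A mean of -0.2 or lower was reached by 104 bins in tumour 1, where 9.9% of all autosomal bins did so, and by 91 bins in tumour 2, where 8.89% did. In tumours 3 and 4 no chromosome 12 bin reached it, beside 0.0839% and 0.21% of autosomal bins. The bins of tumour 1 ranged from -0.50 to -0.13 and those of tumour 2 from -0.43 to -0.096. Tumour 3 spanned -0.18 to 0.054, and tumour 4 spanned -0.14 to 0.091. The ranges of tumours 1 and 2 thus lay wholly below 0, and those of tumours 3 and 4 crossed it.

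**Figure D1:**
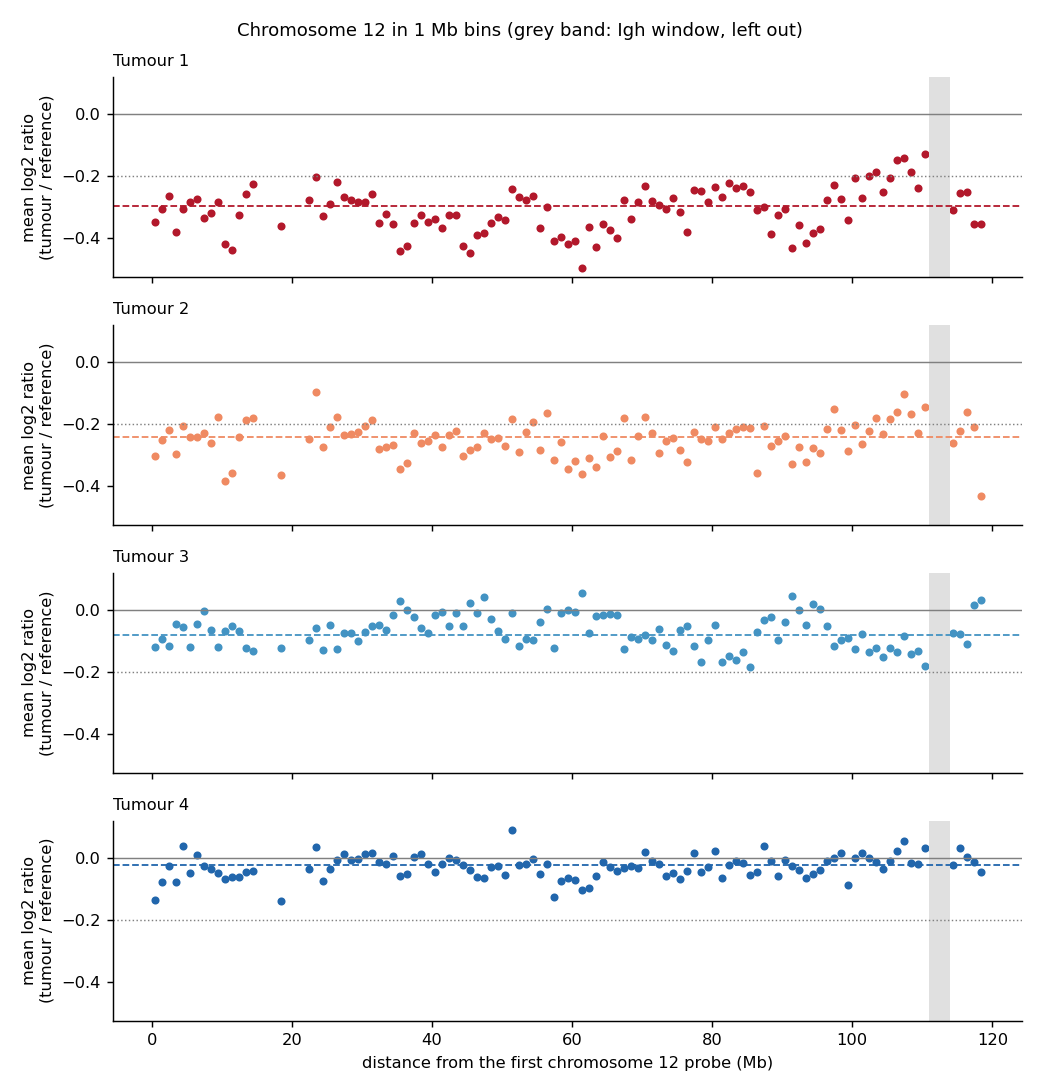
Mean log2 ratio of tumour over reference (vertical axis) in 1 Mb bins along chromosome 12, by distance in Mb from the first probe, 1 panel per tumour. Dashed lines mark the chromosome mean (-0.30, -0.24, -0.080 and -0.023), dotted lines -0.2, and the grey band the Igh window left out. All 110 bins of tumours 1 and 2 sit below 0.

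Counted by probes, 86.7%, 77.2%, 67.9% and 50.8% of the members had a log2 ratio below 0 in tumours 1 to 4. On the 15 autosomes other than 9, 12, 13 and 15 these shares were 47.4%, 47.6%, 49.0% and 50.2%. The median probe was at -0.28, -0.21, -0.077 and -0.0034. In tumour 4 the mean was low because of a tail of low probes, while its median was near 0. The same held for those 15 autosomes in tumour 4, with a mean of -0.022 and a median of -0.00091. The array's genomic profile was also cut into pieces of constant level, and pieces that held at least 5 probes and lay at -0.2 or lower were called lost. Such pieces held 6142 of 6947 members in tumour 1, beside 8.79% of all probes. They held 6945 of the 6946 measured in tumour 2 (4.3% of all probes). Tumour 3 had 31 (0.174%), and tumour 4 had 0 (0.116%). The upper 95% Wilson limit for the 0 in tumour 4 was 0.0553%. It takes probes as independent, although all probes of a piece are called together, so it is too narrow. Centring on the mode gave 0.259%.

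Among the 19 autosomes, chromosome 12 had the lowest mean in tumour 2 and the second lowest, after chromosome 9, in tumours 1 and 3. In tumour 4 it ranked 8th from the lowest. Chromosome 9 had means of -0.31, -0.19, -0.10 and -0.025 in tumours 1 to 4, so both chromosomes were at similar levels within each tumour. Chromosome 15 stood on the other side, with 0.27, 0.28, 0.089 and -0.0036. Chromosome 13 was low in tumour 2, at -0.20, and had -0.0025, 0.015 and -0.016 in tumours 1, 3 and 4. The means of the other 15 autosomes spanned -0.027 to 0.036, -0.046 to 0.097, -0.046 to 0.024 and -0.034 to -0.0033 in tumours 1 to 4. Chromosome 12 lay below all 15 of them in tumours 1, 2 and 3, and within their range in tumour 4.

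**Figure D2:**
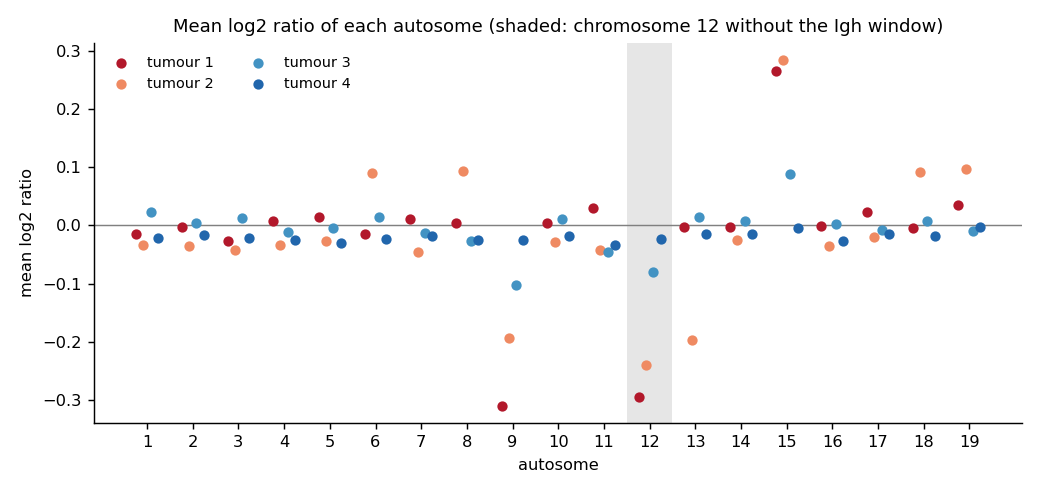
Mean log2 ratio (vertical axis) of each of the 19 autosomes, 1 point per tumour, with chromosome 12 (Igh window left out) shaded. In tumours 1, 2 and 3 chromosome 12 lies below the 15 autosomes other than 9, 12, 13 and 15, and in tumour 4 at -0.023 it lies among them.

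Set against all probes of those 15 autosomes, chromosome 12 differed by -0.30, -0.23, -0.079 and -0.0015 in tumours 1 to 4. In tumour 2 chromosomes 6, 8, 18 and 19 lay at 0.092 on average, and the 11 autosomes left without them at -0.034. Against those 11, chromosome 12 of tumour 2 differed by -0.21, and the other 3 tumours by -0.30, -0.079 and -0.0011. The zero of an array is thus set by which chromosomes are taken as unchanged. Leaving out 6, 8, 18 and 19 changed mainly tumour 2. In tumour 4 the mean of -0.023 against the autosomal median became -0.0015 against the 15 autosomes, so its low level depended on the zero.

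The level was not flat within the chromosome, and the waves differed between tumours. By windows of 10 Mb, tumour 1 was lowest from 60 to 70 Mb, at -0.40 ± 0.013 (SE over bins), and highest from 110 to 120 Mb, at -0.22 ± 0.025. Tumour 2 followed the same order, with -0.30 ± 0.012 and -0.19 ± 0.021 in these windows. Tumour 3 ran the other way: it stood at -0.025 ± 0.015 from 60 to 70 Mb and was lowest, at -0.13 ± 0.014, from 80 to 90 Mb. In tumour 4 these 3 windows had -0.063 ± 0.011 (60 to 70 Mb), -0.022 ± 0.0093 (80 to 90 Mb) and 0.0070 ± 0.012 (110 to 120 Mb).

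Across the 110 bins the profiles of tumours 1 and 2 correlated at r = 0.80, of tumours 1 and 4 at 0.58 and of tumours 1 and 3 at -0.71. These are descriptions over bins that share arrays and probe composition. The same signs appeared over the 1935 bins of the 15 other autosomes, with 0.61, 0.57 and -0.57. The waves therefore were present where the mean level was near 0 as well.

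The waves followed gene density. Bins with more gene names were higher in tumour 1 (r = 0.56) and in tumour 2 (r = 0.30), lower in tumour 3 (r = -0.71) and little related in tumour 4 (r = 0.12), and on the 15 other autosomes these values were 0.56, 0.19, -0.65 and 0.16. In gene-poor bins (at most 3.33 names per Mb) chromosome 12 had -0.36 ± 0.060 in tumour 1 (SD over 37 bins), and in gene-rich bins (above 8.67) -0.26 ± 0.060 (37 bins). In tumour 3 the gene-poor bins had -0.018 ± 0.038 and the gene-rich bins -0.11 ± 0.031. The 15 other autosomes moved by a like amount, from -0.072 to 0.033 in tumour 1 and from 0.057 to -0.031 in tumour 3.

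Within each class of gene density (poor, middle, rich), the difference between chromosome 12 and the 15 other autosomes was nearly constant. It was -0.29, -0.29 and -0.30 from gene-poor to gene-rich bins in tumour 1, and -0.23, -0.24 and -0.23 in tumour 2. It was -0.075, -0.095 and -0.082 in tumour 3, and 0.0030, -0.0041 and -0.0043 in tumour 4. Chromosome 12 thus kept its distance from the other autosomes in gene-poor and gene-rich bins alike. The cause of the waves was not tested.

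**Figure D3:**
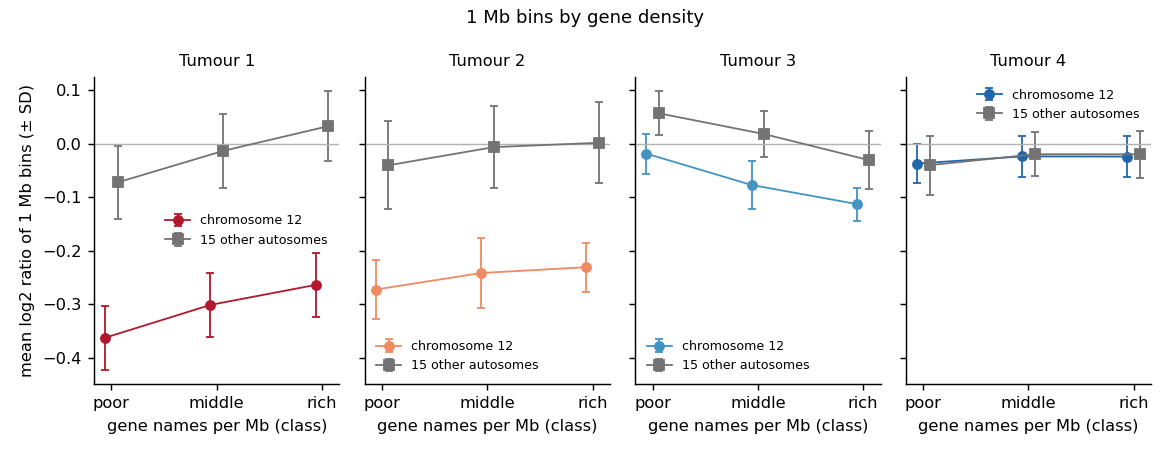
Mean log2 ratio of 1 Mb bins (vertical axis, bars ± SD over bins) in 3 classes of gene names per Mb (poor, middle, rich), for chromosome 12 (coloured circles) and the 15 other autosomes (grey squares), 1 panel per tumour. The lines run in parallel: in tumour 1 chromosome 12 differs by -0.29 to -0.30 in each class, and in tumour 4 the lines overlap.

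Probe GC content gave the same picture at the scale of single probes. Over the members, the log2 ratio correlated with probe GC at r = 0.23, 0.14, -0.061 and 0.12 in tumours 1 to 4, and over the 15 other autosomes at 0.23, 0.14, -0.049 and 0.13. In tumour 1, members with 35% GC or less had a mean of -0.40 (1568 probes) and members with 38.6% or more a mean of -0.18 (438 probes). The difference from the 15 other autosomes within the same GC classes was -0.30 in both. After correction for probe GC the chromosome means were -0.28, -0.24, -0.086 and -0.025, which moved none of them by more than the SD over bins.

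Steps along the chromosome were small beside the loss itself in tumours 1 and 2. In tumour 1 the profile was cut into pieces at -0.30 (chr12:3102541 to the Tspan13 gene), -0.35 (from there to AK161156), -0.29 (from Pole2 to within Atxn3) and -0.19 (from Atxn3 into the Igh window), then -0.28 after Igh. Tspan13 encodes a membrane tetraspanin, Pole2 a subunit of DNA polymerase epsilon and Atxn3 a deubiquitinating enzyme. The strongest single split of tumour 1 lay in Atxn3, at position 103195588: the 5847 probes before it had -0.31 and the 1100 after it -0.22, a step of 0.090. Tumour 2 had its strongest split at 105499766, from -0.25 to -0.19, a step of 0.057. The 2 positions differed, and the chromosome ended low again after Igh in both tumours.

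Tumour 3 had its strongest split at 70128600, with -0.060 before and -0.10 after. Tumour 4 had its split near the start, at 3741627, with -0.20 over the first 53 probes and -0.022 over the rest. The mean of those 53 probes was also lower than the remainder in the other tumours. It was -0.39 against -0.29 in tumour 1, -0.35 against -0.24 in tumour 2 and -0.12 against -0.080 in tumour 3. Lone low probes feed these means: the Asxl2 probe, at -2.0 in tumour 4, and the probe at 3671966, at -1.43 there. In tumours 1 to 4 the 28 probes before the Asxl2 probe had -0.28, -0.21, -0.042 and -0.081. The 18 probes between these lone probes had -0.43, -0.39, -0.18 and -0.19. The stretch was thus not evenly low. The distal part minus the proximal part, divided at the middle of the chromosome, was 0.041, 0.013, -0.027 and 0.0088.

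When 1 Mb means were corrected for gene names and probe GC with a fit to the 15 other autosomes, the fit took up 48.4% of the variance of their bins in tumour 1 and 52.7% in tumour 3, against 7.67% and 4.32% in tumours 2 and 4. The correction was chosen after seeing the data. With it, tumour 1 was one piece at -0.30 from the first probe to 107.32 Mb, at the last probe of the Vrk1 gene, then -0.21 into the Igh window. Vrk1 encodes a nuclear kinase. The step at Tspan13 and that at Pole2 were no longer found, the strongest split was 0.066 at 107329523, and all members of tumour 1 fell in pieces called lost. The SD over chromosome 12 bins dropped from 0.072 to 0.051 in tumour 1 and from 0.054 to 0.035 in tumour 3.

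The ends of the chromosome and the borders of Igh were low too in tumours 1 and 2. The first 1 Mb, which holds Dnmt3a, a DNA methyltransferase, and Asxl2, a chromatin regulator, had -0.33 ± 0.030 (SE over 91 probes), -0.30 ± 0.038, -0.13 ± 0.025 and -0.13 ± 0.032 in tumours 1 to 4. The last 1 Mb, with the integrin gene Itgb8 and Macc1, had -0.37 ± 0.040 (45 probes), -0.28 ± 0.051, 0.032 ± 0.022 and -0.031 ± 0.026. In tumour 4 the mean was thus lower at the start of the chromosome than at its end. The first 1 Mb holds the lone low probes at 3470067 (Asxl2) and 3671966, with -2.0 and -1.43 in tumour 4.

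The Mb just before the Igh window, which holds Akt1 and the DNA repair gene Xrcc3, had -0.13 ± 0.035 (74 probes), -0.15 ± 0.046, -0.18 ± 0.017 and 0.033 ± 0.021 in tumours 1 to 4. The 295 probes after the window had -0.29 ± 0.015, -0.23 ± 0.018, -0.064 ± 0.0096 and -0.0012 ± 0.010. The Igh window itself had -0.027, 0.026, 0.16 and 0.17 over 199 probes. The stretch before Igh was the highest bin of the chromosome in tumour 1 and the second lowest in tumour 3, and the stretch after it was back at the chromosome level in all 4 tumours. With the regional correction the Mb before Igh had -0.23 and -0.18 in tumours 1 and 2, and -0.12 and 0.038 in tumours 3 and 4.

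Sav1 was among the lowest named genes and rested on few probes. Its first probe had -0.91, -0.77, -0.31 and -0.29 in tumours 1 to 4, and its second -0.51, -0.31, 0.18 and -0.041. With the probes within 50 kb on each side, 13 in all, Sav1 had -0.46, -0.46, -0.10 and -0.098. Tumours 1 and 2 lay below tumours 3 and 4 on both probes and in the window, and the 2 probes differed from each other by more than the noise SD in all 4 tumours. After correction for probe GC the window had -0.37, -0.42, -0.15 and -0.11.

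Akt1 had the fewest probes and no settled level. Its only probe had -0.23, -0.29, 0.12 and 0.092, and the window of 9 probes had -0.12, -0.039, -0.17 and 0.12. The single probe and the window differed in sign in tumour 3. With the regional correction the window had -0.22, -0.073, -0.10 and 0.13.

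Immp2l, by contrast, was read by 94 probes over 1295 kb (chr12:41754734-43049365). Its means in tumours 1 to 4 were -0.35 ± 0.027 (SE of the probe values), -0.25 ± 0.032, -0.047 ± 0.017 and -0.016 ± 0.020. The 114 probes within 1 Mb outside it had -0.33, -0.26, -0.062 and -0.0043. No cut fell within the gene in any tumour, but its probes before and after its middle were not equally level in every tumour. They had -0.35 and -0.36 in tumour 1 and -0.25 and -0.25 in tumour 2, against -0.0020 and -0.092 in tumour 3 and 0.029 and -0.060 in tumour 4.

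Nrxn3 had 144 probes over 1373 kb (chr12:90199057-91572098), with -0.33 ± 0.021, -0.22 ± 0.027, -0.024 ± 0.013 and 0.036 ± 0.014 in tumours 1 to 4. The 121 probes within 1 Mb outside it had -0.34, -0.29, -0.067 and -0.061. It too was a single piece in each tumour. Nrxn3 was higher than its flanks in every tumour, least so in tumour 1. The SE covers only the probes of the gene, so the difference was not tested. The flanks include a lone low probe of AK006652, with -0.85, -1.06, -0.22 and -0.59. Single probes of the gene ran from -1.10 to 0.48 in tumour 2.

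**Figure D4:**
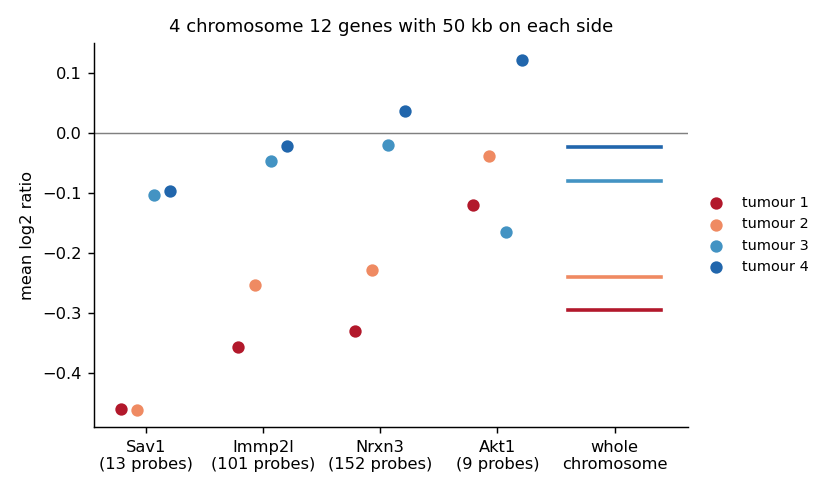
Mean log2 ratio (vertical axis) of 4 chromosome 12 genes with the probes within 50 kb on each side, 1 point per tumour, with the number of probes under each name. Short lines on the right give the chromosome mean of each tumour. Sav1 is lowest at -0.46 in tumours 1 and 2, and Akt1, with 9 probes, lies from -0.17 to 0.12.

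With the same windows of 50 kb, 710 gene names of chromosome 12 could be measured. Of these, 554 had a mean of -0.2 or lower in tumour 1, beside 8.95% of all 20792 named genes. There were 456 in tumour 2 (10.8% of all genes), 62 in tumour 3 (3.04%) and 8 in tumour 4 (1.48%). Their median was -0.27, -0.23, -0.11 and -0.027, against 0.031, -0.0076, -0.031 and -0.015 over all named genes. A limma fit of the mean over the 4 tumours against 0 passed 0 of the 710 at an adjusted p under 0.05, beside 0.0433% of all genes. At an unadjusted p under 0.05 it passed 515, all lower, beside 20.5% of all genes in either direction and 14.5% lower. The rule that chose the chromosome used these ratios, so nothing is read from either count.

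Of 21 tumour suppressor and genome care genes listed for the chromosome, 18 were measured. All 18 were below 0 in tumours 1 and 2, 17 in tumour 3 and 12 in tumour 4, and 14, 9, 2 and 1 were at -0.2 or lower. Of all 710 genes, 704, 701, 665 and 469 were below 0, and 78%, 64.2%, 8.73% and 1.13% were at -0.2 or lower. The medians of the 18, at -0.25, -0.20, -0.13 and -0.022, were near those of all 710 genes. The lowest and highest named next are of the 18. Asxl2 had the lowest mean over the tumours, with -0.40, -0.31, -0.21 and -0.26, and was the 1 gene at -0.2 or lower in tumour 4. Its window of 15 probes includes the lone Asxl2 probe printed above, with -1.58, -1.98, -1.81 and -2.0. That probe lowers the Asxl2 mean in every tumour, and the rank without it was not computed. Meg3, a maternally expressed non-coding RNA, had the highest, with -0.16, -0.16, -0.078 and 0.049. Fancm, a DNA crosslink repair helicase, had -0.48, -0.39, 0.018 and -0.073, and Dicer1, which cuts microRNA precursors, -0.20, -0.14, -0.18 and 0.012. Mlh3, of mismatch repair, had -0.37, -0.30, -0.25 and -0.056.

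Of 23 growth and oncogene-type genes listed, 18 were measured in tumours 1 to 4. At -0.2 or lower were 11, 6, 1 and 0 of the 18, beside 78%, 64.2%, 8.73% and 1.13% of all 710 genes. The transcription factor gene Etv1 was lowest, with -0.44, -0.44, -0.039 and -0.073, and the AP-1 partner Jdp2 highest, with -0.085, -0.081, -0.083 and 0.087. The Etv1 window of 16 probes includes the AK135613 probe printed above, with -1.33, -3.30, -0.51 and -1.23. That probe lowers the mean of Etv1 over the tumours, -0.248, which is barely below the -0.247 of Ddx1. Hif1a, the oxygen-sensing factor, had -0.37, -0.26, -0.070 and -0.057, and Id2, an inhibitor of differentiation, -0.14, -0.044, -0.10 and 0.077. Etv1 lay in a stretch with few gene names, and Jdp2 in one of the densest.

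Of 27 liver-secreted and metabolic genes listed, 20 were measured. At -0.2 or lower were 12, 10, 4 and 0 of the 20, beside 78%, 64.2%, 8.73% and 1.13% of all 710 genes. Serpina12, of the serine protease inhibitor cluster, was lowest, with -0.32, -0.46, -0.22 and -0.16. Its window of 11 probes includes a low Serpina12 probe, with -1.10, -1.36, -0.45 and -0.91. Acot1, an acyl-CoA thioesterase, was highest, with -0.057, 0.031, -0.16 and 0.019. Apob, which encodes the apolipoprotein of the lipoproteins that the liver secretes, had -0.21, -0.21, -0.089 and 0.037. Gstz1, an enzyme of tyrosine breakdown, had -0.25, -0.17, -0.34 and -0.068. Gstz1 lay in the only piece of tumour 3 called lost, 31 probes at -0.22 (chr12:88467564-88749614), which also held Ahsa1 and Sptlc2. This piece was not found after correction for probe GC or with the regional correction.

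Of 18 large genes listed, 16 were measured in tumours 1 to 4. At -0.2 or lower were 16, 14, 0 and 0 of the 16, beside 78%, 64.2%, 8.73% and 1.13% of all 710 genes. Nbas, of the Golgi-to-endoplasmic reticulum route, was lowest, with -0.52, -0.51, -0.10 and -0.13. Its window of 34 probes includes a low Nbas probe, with -1.20, -1.75, -0.94 and -1.18. Npas3, a neuronal transcription factor gene, was highest, with -0.23, -0.20, -0.027 and 0.12. Dgkb, a diacylglycerol kinase gene, had -0.45, -0.35, 0.022 and -0.076, and Mdga2 -0.37, -0.28, -0.0091 and -0.019. In tumour 4 a piece of 127 probes at 0.076 (chr12:53880522-55114383) held most of Npas3 (chr12:54360193-55165154). The profile of tumour 4 was cut within the gene, by a lone probe at 1.31, and the piece after it, from 55137443, had -0.039.

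The imprinted Dlk1-Dio3 domain, where one parental copy of each gene is silent, was among the higher stretches. All 5 measured genes (of 7 listed) were below 0 in tumours 1, 2 and 3, with medians of -0.15, -0.10 and -0.085, none was at -0.2 or lower, and all 5 were above 0 in tumour 4, with a median of 0.064. Over all 710 genes of the chromosome, 78%, 64.2%, 8.73% and 1.13% were at -0.2 or lower in tumours 1 to 4. Dlk1, a Notch-like ligand of fetal tissues, had -0.077, -0.046, -0.076 and 0.064. The array ratios do not tell the parental copies apart.

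Sav1 and Akt1 were also seen beside their pathways, whose genes are spread over the genome. Of 22 measured Hippo genes (24 listed), 4, 3, 1 and 0 were at -0.2 or lower in tumours 1 to 4. Over all named genes the shares at -0.2 or lower were 8.95%, 10.8%, 3.04% and 1.48%. The 2 Hippo genes on chromosome 12 were Sav1 and Frmd6, a FERM-domain gene, with -0.38, -0.40, -0.11 and -0.073. The lowest was Amotl2 on chromosome 9, with -0.39, -0.34, -0.24 and -0.16, and the highest Amot on X, with 0.94, 0.34, -0.0012 and -0.016. Amot follows the X chromosome of tumour 1. Of 22 measured PI3K-Akt genes (24 listed), 1, 2, 1 and 0 were at -0.2 or lower. Pik3cb on chromosome 9 was lowest, with -0.37, -0.32, -0.17 and -0.077, and Rictor on chromosome 15 highest, with 0.24, 0.29, 0.092 and 0.027. Pik3cg, a catalytic PI3-kinase subunit on chromosome 12, had -0.20, -0.17, -0.15 and -0.030.

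Single probes far from the rest in at least 3 tumours did not gather into small deletions. A small deletion in only 1 or 2 tumours would not show in this count. At least 0.5 below the chromosome mean in at least 3 tumours were 79 members, 1.14% of them, beside 1.34% of all autosomal probes. At least 0.5 above it were 8 members, 0.115%, beside 0.103%. Of the low ones, 77 stood alone and 2 were neighbours in AK090117, with -0.79, -0.98, -0.71 and -0.82, and there was no run of 3 or more. The Asxl2 probe printed above had -1.58, -1.98, -1.81 and -2.0, and the 4933426M11Rik probe -1.91, -1.11, -2.12 and -1.52. Both were low in every tumour, also in tumour 4, whose chromosome mean was near 0. The AK135613 probe had -1.33, -3.30, -0.51 and -1.23, and in tumour 2 its signal was not well above background. That 1 probe cut the tumour 2 profile in 2, at -0.25 before it and -0.24 after it.

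The share of cells that would give these means was worked out for cells that kept 1 of 2 copies, with the rest of the sample at 2. The loss from every cell would give -1.0. The means corresponded to 37.0% of cells in tumour 1 (35.5% to 38.6%, 95% interval over bins), 30.8% in tumour 2 (29.5% to 32.0%), 10.8% in tumour 3 (9.46% to 12.1%) and 3.20% in tumour 4 (2.23% to 4.16%). The intervals take the bins as independent and the zero as fixed, so they are too narrow. With another background correction (normexp) tumour 1 came to 45.2%. Against the 15 other autosomes the shares became 37.3%, 30.0%, 10.6% and 0.215%, and against the 11 autosomes without 6, 8, 18 and 19 tumour 2 came to 26.7%. If cells had 4 copies and lost 1, the shares would be 74.1%, 61.5%, 21.6% and 6.39%. Fewer cells with the loss and fewer copies lost per cell cannot be told apart in bulk DNA. Normal cells in the sample would lower every such share.

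The same conversion gave 38.6%, 25.2%, 13.7% and 3.37% for chromosome 9. For a gain of 1 copy of chromosome 15 it gave 40.3%, 43.6%, 12.7% and -0.498%. Tumour 2 had 25.6% for chromosome 13. In tumours 1 and 3 chromosomes 12, 9 and 15 thus gave shares within a few percentage points of each other, and in tumour 2 chromosome 15 gave the largest and chromosome 9 the smallest of the 4.

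The implied share depended on which probes were used. The probes were split into 4 equal classes by reference signal, and in tumour 1 the dimmest class came to 50.5% and the brightest to 21.2%. In tumour 2 the classes ran from 46.6% to 14.2%, in tumour 3 from 7.06% to 15.7% and in tumour 4 from 11.4% to -5.12%. Set against the 15 other autosomes in the same class, they ran between 35.8% and 39.0% in tumour 1, 28.5% and 31.0% in tumour 2, 10.2% and 11.4% in tumour 3, and -0.467% and 0.917% in tumour 4. The reference signal is the denominator of the ratio, so classes and ratios are not independent. The order of the tumours was the same in every class once set against the other autosomes.

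**Figure D5:**
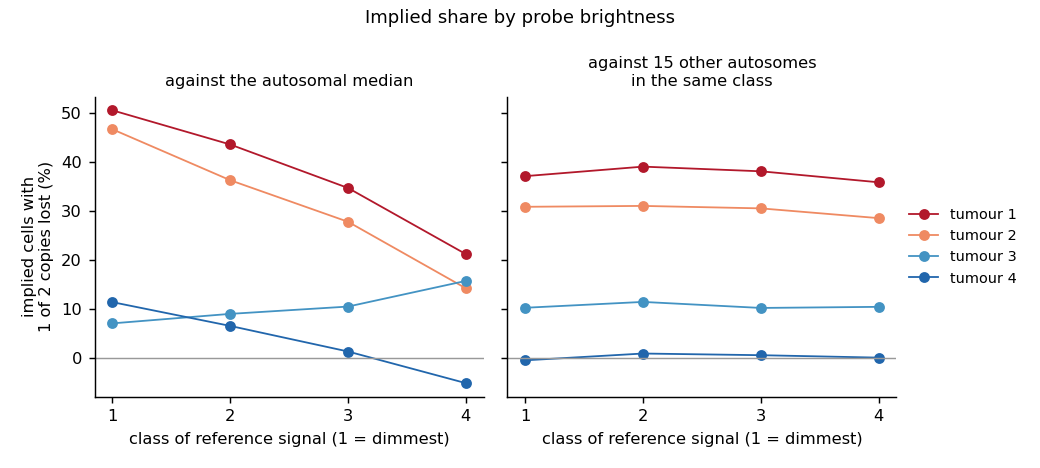
Percent of cells with 1 of 2 copies lost implied by chromosome 12 (vertical axis), in 4 classes of reference signal from dimmest to brightest, 1 line per tumour. On the left, against the autosomal median, tumour 1 runs from 50.5% to 21.2%, and on the right, against the 15 other autosomes in the same class, it stays between 35.8% and 39.0%.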

How the data were processed

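Per the labels, genomic DNA of 4 tumours was hybridised to 2-colour arrays against a reference, and scanned arrays were read with Agilent Feature Extraction 10.7.3.1, per the submitters' processing notes. Per the file headers, the deposited log ratio is log10 of red over green after the scanner software's background subtraction and dye normalization, and the deposited intensity columns hold the processed and raw signals per spot, used for well-above-background flags, classes of reference signal and an alternative background correction. The deposited series table matched the scanner log10 ratios at 180880 spots per array, so its scale, direction and lack of further centring are known. Positions are mm9, from the files.

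The log10 ratios were turned into log2, control spots and outlier spots were left out, repeated spots of a probe were replaced by their mean, and the autosomal median of each array was set to 0, with no loess or quantile step. Pieces of constant level came from penalised least squares (penalty factor 4, noise from neighbouring probes). A gene's value is the mean of its probes and those within 50 kb. Genes over the tumours were fitted with limma 3.58.1 in R 4.3.3 (Benjamini-Hochberg adjustment), and the rest was computed in Python 3.11.15. Segmentation and limma were tested on simulated data. Of 710 gene names, 398 were current RefSeq symbols and 73 older ones. The members and gene lists were chosen with earlier results of these data known. Named genes were the 4 of the selection rule, each list's lowest and highest member and up to 4 with a well-known role, genes at steps and edges, and probes apart in at least 3 tumours. Separate mice are the replicates, 1 array each. Intervals over bins describe 1 array. The number of arrays limits the precision. Alternatives were other background corrections, centrings, probe filters, thresholds, penalties and leaving out each tumour.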

Additional observations from a re-analysis of the deposited data

Results flagged for a closer look

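Dixon's ratio over the 4 tumours was above its 95% critical value for 4 of 109 values examined. Each time tumour 4 was the sample far from the others. Independent values would pass at about 1 in 20 by chance, but these values overlap and share the 4 arrays. The count can therefore not be set against chance. The windows of 50 kb concerned were Jdp2, with 0.087 in tumour 4 against -0.085, -0.081 and -0.083, Nfkbia, an inhibitor of NF-kappaB, with 0.056 against -0.15, -0.17 and -0.16, Xrcc3 with 0.021 against -0.12, -0.15 and -0.12, and Esrrb, an orphan nuclear receptor gene, with -0.0022 against -0.16, -0.16 and -0.14. In these windows tumour 3 lay at the level of tumours 1 and 2, unlike its chromosome mean. The flag requires this, since the ratio is high only when the other values lie close together. Nothing is therefore read from it about tumour 3.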

How the results depend on the processing

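There were 219 comparisons with alternatives for the chromosome mean, the implied share, the share called lost, the steps and the limma count. Of these, 187 kept their value within the spread used. For means, implied shares and steps this was the SD over bins in 1 tumour, or the SD over tumours. Leaving out 1 of 4 tumours cannot move a mean beyond that SD, so those comparisons were bound to stay within it. No called level changed sign, but only tumours 1 and 2 had a called level. The mean of tumour 4 became 0.0012 with the regional correction. The mean over the tumours ran from -0.21 to -0.11 when each tumour was left out, the implied share from 14.9% to 26.2%, and the share called lost from 29.6% to 62.9%. The mean of tumour 1 was -0.37 with normexp background correction. The brightest class of reference signal gave implied shares of 21.2%, 14.2% and -5.12% in tumours 1, 2 and 4. The share called lost moved most, since the levels of tumours 1 and 2 lie near the threshold of -0.2. In tumour 1 it was 100% with normexp, either other centring, the regional correction or a threshold of 0.1, 99.99% relative to tumour 4, 95.3% with a penalty factor of 2 and 26.3% with a threshold of 0.3. In tumour 2 it was 100% with normexp or a penalty factor of 8, 95.7% against the 11 autosomes without 6, 8, 18 and 19, 91.2% with probes well above background or a penalty factor of 2, and 0% with a threshold of 0.3. In tumour 3 it was 37.7% with a threshold of 0.1, and 0% with normexp, GC correction, the regional correction, a threshold of 0.3, a penalty factor of 8 or relative to tumour 4. In tumour 4 it was 0.259% with centring on the mode or a threshold of 0.1. The strongest split turned its sign at another position, to -0.028 in tumour 2 relative to tumour 4 and to 0.084 in tumour 3 with the regional correction, and was 0.10 in tumour 4 with normexp. Limma passed 1 gene (AK146348) with normexp, 2 without flanks and 0 without each tumour in turn. The regional correction, the values relative to tumour 4 and those against other autosomes were chosen after seeing the data. The slide could not be fitted as a block, since only tumours 1 and 4 shared one. No paired analysis was possible because the study has 1 group. With 1 array per mouse and noise of 0.16 to 0.32 per probe, genes with few probes have no settled level.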
